A study of Mus musculus with 57 samples.

Results

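Livers of mice given concanavalin A (ConA) were set against livers of mice given 1 of 6 chemical toxicants, in bulk RNA-seq of 40 of the 57 livers in the series. The groups were taken from the treatment labels. They held 7 ConA mice and 33 mice given a chemical: 6 received acetaminophen (APAP), 7 carbon tetrachloride (CCl4), 5 thioacetamide (TAA), 4 galactosamine (GAL), 4 alpha-naphthyl isothiocyanate (ANIT) and 7 4,4'-methylene dianiline (MDA). The genes described are those in which ConA lay beyond each of the 6 chemical groups in the same direction. A further 17 mice given a vehicle show the level of each gene without a toxicant. All were male wild-type C57BL/6JJcl mice, 6 weeks old at the start of 1 week of acclimatisation, fasted for 12 h before administration and killed 24 h after it. Livers were perfused, and the RNA is that of the outer left lateral lobe. ConA was injected intravenously, ANIT, APAP, MDA and TAA were given by gavage, and CCl4 and GAL were injected intraperitoneally. The vehicle mice received 0.5% methylcellulose by gavage (13 mice), saline intraperitoneally (2) or saline intravenously (2). Some mice may have received corn oil, another vehicle of the labels, which also give 10 µL/kg as the dose of every group. The amount of each toxicant and the vehicle it was given in are not stated in the sources used here. No chemical was given intravenously, so that the route cannot be told apart from the difference between ConA and the chemicals.

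ConA is a lectin of the jack bean that binds mannose-containing sugar chains and activates T cells, and after intravenous injection it lodges on the cells that line the liver sinusoids. Liver injury after ConA is known to depend on T and natural killer T cells and on their cytokines, among them interferon gamma, which acts through the JAK-STAT pathway and induces the transcription factor IRF1. Genes induced by interferon gamma often carry gamma-activated sequences (GAS), and those induced by type I interferon often carry interferon-stimulated response elements (ISRE). The chemicals injure the liver by other routes. APAP, TAA and CCl4 are made reactive by cytochrome P450 enzymes in hepatocytes, ANIT and MDA damage bile duct cells, and GAL depletes hepatocytes of uridine nucleotides.

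Library totals ran from 15695791 to 30463927 estimated counts over the 40 livers, with a median of 22150155. Mitochondrial transcripts made up 14.6% to 39.3% of the ConA libraries (median 24.4%) and 9% to 24.4% of the chemical ones (median 14.2%). The means of 24.6% and 15% differed by an exact two-sided permutation test (p = 0.000137, 0.000411 after Benjamini-Hochberg adjustment over 3 library measures). Fewer genes were detected in ConA, 16186 ± 739 (SD, n = 7) against 17628 ± 1170 (SD, n = 33; exact permutation p = 0.00332, adjusted 0.00498). Library totals were lower in ConA, with a mean of 18742395 against 21996154 estimated counts (exact permutation p = 0.0431, adjusted 0.0431). The part of RNA quality and depth in the results below was not tested. APAP mouse 1 stood apart from the other 5 APAP mice: its mean correlation with the ConA livers was 0.893, and those of the others were 0.817 to 0.833. ConA mouse 12 had the lowest Gbp2 and Isg15 of its group.

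Of 54307 genes in the table, 16758 passed the filter on low counts and were tested. ConA was higher than each of the 6 chemical groups in 850 genes, 5.07% of those tested, and lower than each in 1065 genes, 6.36%. A gene was counted when edgeR's quasi-likelihood test gave a Benjamini-Hochberg adjusted p under 0.05, with the same sign, in all 6 contrasts. By group means alone, with no test, ConA lay above all 6 in 3560 genes (21.2%) and below all 6 in 4087 (24.4%). The difference from the nearest chemical group had a median of 1.22 on the log2 scale among the 850 genes and −1.09 among the 1065. In 131 of the 1065, every ConA liver held at most 3 estimated counts, so their fold is only a bound, and in 82 of these the mean of the nearest group was no higher than 3 counts, so that the size of the gap cannot be stated. With the 131 at their bound, the median was −0.91. All 7 ConA mice lay above all 33 chemical mice in 303 genes (1.81%) and below all of them in 137 (0.818%). Without APAP mouse 1 these counts were 511 and 237, and without ConA mouse 12 the lower count was 208. The direction of calls depended on scaling: with library totals in place of TMM factors, the median log2 difference of all genes moved by −0.74, and 241 genes were higher and 3274 lower than in each group. All 241 were among the 850, and 1063 of the 1065 lower genes were among the 3274. Whether higher or lower genes were more numerous also depended on the test: DESeq2 gave 1039 higher and 961 lower than in each group, and limma 1114 and 836.

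Taken pair by pair, ConA differed most often from CCl4, with 4003 genes higher (23.9%) and 4688 lower (28%), together 51.9%, and least often from TAA, with 1903 higher (11.4%) and 2882 lower (17.2%), together 28.6%. The counts were 3355 higher (20%) and 3817 lower (22.8%) against ANIT, together 42.8%, and 2955 (17.6%) and 4099 (24.5%) against APAP, together 42.1%. Against MDA they were 3848 (23%) and 4366 (26.1%), together 49%, and against GAL 3769 (22.5%) and 4056 (24.2%), together 46.7%. Against the mean of the 6 groups, 4170 genes were higher (24.9%) and 4409 lower (26.3%), together 51.2%. With DESeq2 size factors in edgeR the larger count was the higher one against ANIT (3617 and 3506), MDA (4129 and 4062), CCl4 (4325 and 4308), GAL (3930 and 3868) and the mean of the 6 (4486 and 4099), so no balance between directions is read from these pairs. Library-total scaling gave 756 higher and 6888 lower genes against TAA and lowered the share of higher genes in every pair, from between 39.8% and 48.2% to between 7.74% and 30.7%. The 6 pairs share the ConA mice, and the chemical groups held 4 to 7 mice, on which the number of calls also depends. With the vehicle of the same route subtracted MDA had the most calls, 4459, CCl4 had 3119 and TAA again had the fewest, 1679. ConA was higher than exactly 5 of the 6 groups in 728 genes and lower than exactly 5 in 964.

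**Figure D1:**
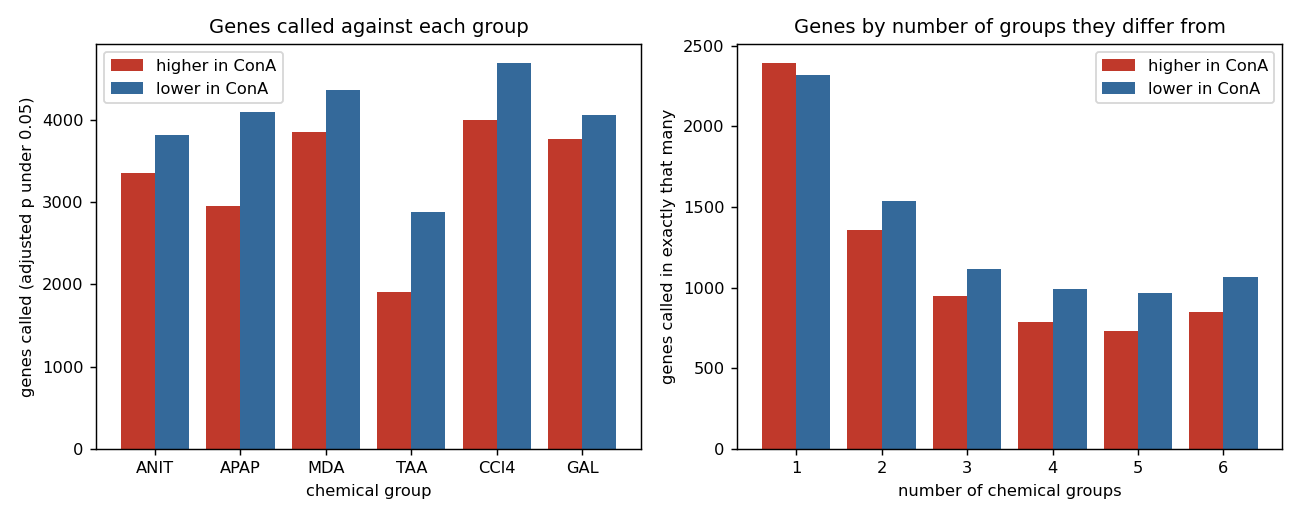
Genes called between ConA and each of the 6 chemical groups (bars, number of genes higher and lower in ConA at an adjusted p under 0.05), and genes by the number of chemical groups from which ConA differed. The bars for TAA are the shortest, at 1903 and 2882 genes, and the bars for all 6 groups stand at 850 and 1065.

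The members were read through 29 gene lists, which held 575 different genes in all, some of them in several lists. Interferon-responsive genes and class I antigen presentation lay high in ConA against every chemical group, and Kupffer cell, sinusoidal endothelial and NRF2 lists lay low against every chemical group. The median log2 difference from the mean of the 6 groups was 4.21 for interferon gamma-inducible genes, 4.13 for type I interferon-stimulated genes and 1.88 for class I presentation, against −0.06 for all genes tested. It was −2.25 for Kupffer cell genes, −2.09 for sinusoidal endothelial genes and −1.44 for NRF2 targets. Between the interferon lists and class I lay chemokine ligands (2.95), cytokines (2.85) and JAK-STAT and NF-kB feedback (2.49). Erythroid and platelet genes (2.35), acute phase proteins (2) and endothelial activation (1.93) lay there too. Lists of hepatocyte identity (0.32), fatty acid oxidation (0.25), cytochrome P450 enzymes (0.19) and the cell cycle (0.19) had medians inside the shift of 0.74 between scalings, so no direction is given for them.

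**Figure D2:**
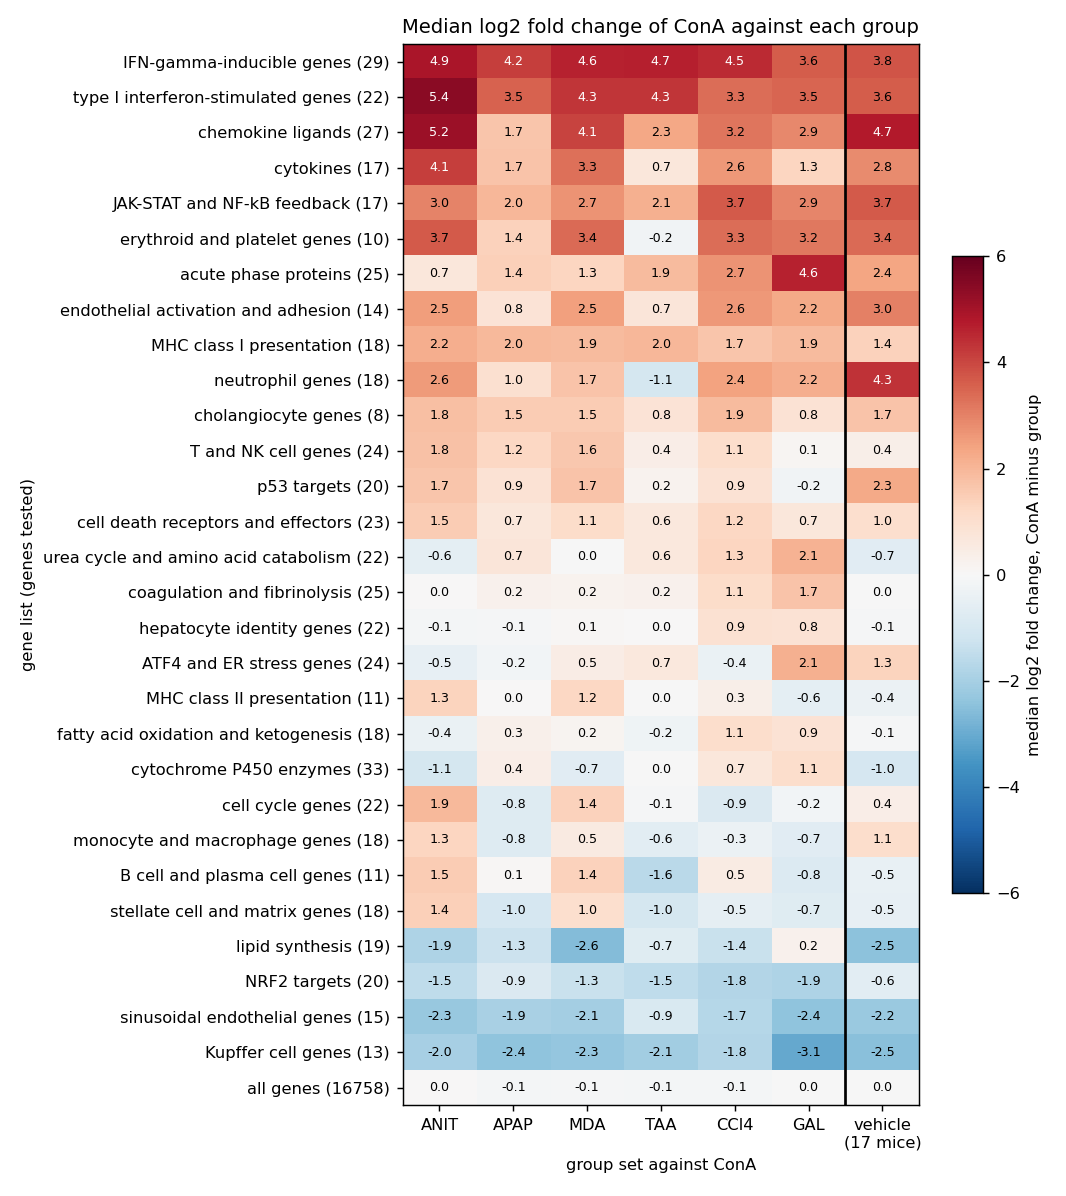
Median log2 fold change of each gene list in ConA (rows, with all genes at the bottom) against each chemical group and the vehicle mice (columns). The interferon gamma list runs from 3.65 against GAL to 4.91 against ANIT, and the Kupffer list from −1.75 against CCl4 to −3.07 against GAL.

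Interferon gamma-inducible genes had the largest median difference of the 29 lists against the mean of the 6 groups, though not against ANIT, GAL or the vehicle livers taken alone. Of 30 listed, 29 were tested, 24 were higher in ConA than in each of the 6 groups (82.8%, against 5.07% of all genes), none was lower, and 23 showed no overlap of mice, as did 1.81% of all genes. Their summed level was 5000 to 17260 CPM in the ConA livers, with a median of 10900, and at most 624.2 in any chemical liver. The vehicle livers lay between 264.2 and 645.7. CPM divide each estimated count by the TMM-scaled total of its library, so they compare livers for a gene and not genes with each other.

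Cxcl9, a chemokine that draws CXCR3-bearing T cells, measured 1848 CPM in the lowest ConA liver, 2838 at the median and 5347 in the highest. The 33 chemical livers measured 0.308, 7.18 and 72.9 on the same scale. No ConA liver came near the chemical range, and the highest chemical liver was APAP mouse 1. The log2 difference from the mean of the 6 groups was 8.69 ± 0.49 (SE), and from the nearest group, CCl4, 7.66 (largest of 6 edgeR adjusted p = 3.14e-07). Cxcl10, a ligand of the same receptor, measured 914.5 CPM at the lowest, 3230 at the median and 6108 at the highest in ConA. The chemical livers spanned 0.817 to 205.9 CPM, with APAP mouse 1 again the highest and the other 5 APAP livers at 2.27 to 8.89. The difference from the nearest group, TAA, was 6.01 (largest edgeR adjusted p = 0.000352).

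Several guanylate-binding proteins, GTPases that act on vacuoles of intracellular microbes, were higher in ConA than in each group. Gbp2 measured 325.9 CPM in ConA mouse 12 and 679.8 to 892 in the other 6 ConA livers, against 0.956 to 16.8 in the chemical livers. Its difference from the nearest group, GAL, was 6.63 (largest edgeR adjusted p = 1e-09). Gbp6, Gbp11 and Gbp10 lay 6.13, 5.62 and 5.28 above their nearest groups, Gbp5 4.88, Gbp3 4.18 and Gbp7 2.76. Gbp2b, chosen after its values were seen, did not differ by the test (0.17 from the mean of the 6, edgeR adjusted p = 0.739). These genes are near-identical in places, and reads may have been divided among them by the counting. Among other members, Ubd, a ubiquitin-like protein, measured 45.9 to 117 CPM in ConA and 0.181 to 1.73 in the chemical livers. Nos2, the inducible nitric oxide synthase, measured 47.8 CPM at the lowest, 67.1 at the median and 92.8 at the highest in ConA, and 0, 0.136 and 4.34 in the chemical livers. The Nos2 groups did not overlap, and the nearest group was TAA (6.24, largest edgeR adjusted p = 4.13e-05). After subtraction of the vehicle of the same route Nos2 differed from the mean of the 6 by 8.9 (edgeR adjusted p = 0.00292; 7.6 without it) but did not pass in all 6 pairs.

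Irf1, a transcription factor of the pathway, measured 122 to 592 CPM in ConA (median 351) and 7.82 to 37.3 in the chemical livers, where GAL was nearest (3.65, largest edgeR adjusted p = 5.45e-10). Cd274, the ligand of PD-1, stood at 53.4 to 159 CPM in ConA and at 0.174 to 34 in the chemical livers. Irgm1, an immunity-related GTPase, was 2.96 above GAL, its nearest group. The 5 tested members outside the 24 were Ciita, Gch1, Irgm2, Nlrc5 and Tgtp2. Nlrc5, the class I transactivator, measured 17.9 to 34.9 CPM in ConA and 9.84 to 20.9 in ANIT (nearest difference 0.62, edgeR adjusted p = 0.0675). Igtp and Irgm2 have overlapping gene models, as do Olfr56, Ifi47, Tgtp1 and Tgtp2, so that the division of reads among them is uncertain. Where the vehicle of the same route was subtracted, 18 of the 29 passed the threshold in all 6 pairs.

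**Figure D3:**
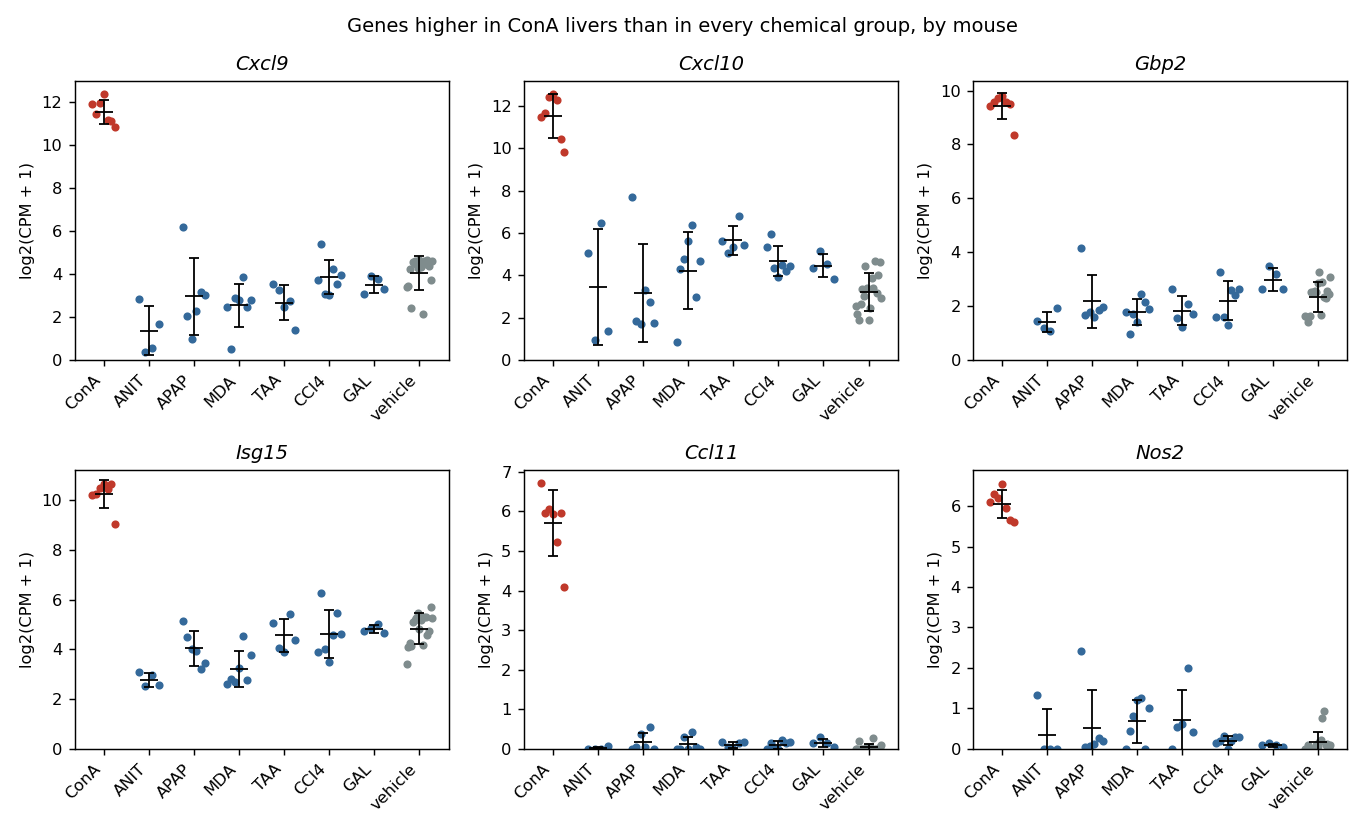
Levels of 6 genes, log2(CPM + 1) on the vertical axis, in each liver (points) of ConA, the 6 chemical groups and the pooled vehicle mice, with the group mean ± SD in black. In each panel the 7 ConA points lie above all 33 chemical points, and the highest chemical Cxcl10 value, 205.9 CPM, is APAP mouse 1.

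The promoters of these genes were read for the motifs of the 2 pathways, and 6 of them are shown because their genes were higher in ConA than in each chemical group and they hold a motif. Each run is the 250 bases before a start of the gene, 5′ to 3′ on the strand of the gene, from RefSeq on GRCm38.p6, with matches in capitals. The ISRE core was searched as GAAA, any 2 bases and GAAA, and the GAS as TTCNNNGAA, on both strands.
Isg15 promoter, chr4:156200819-156201068: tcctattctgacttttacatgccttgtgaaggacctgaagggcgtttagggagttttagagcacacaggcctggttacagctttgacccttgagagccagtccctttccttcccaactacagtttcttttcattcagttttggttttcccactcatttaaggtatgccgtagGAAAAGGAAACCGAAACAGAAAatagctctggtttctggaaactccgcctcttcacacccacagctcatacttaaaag
Ifit1 promoter, chr19:34640639-34640888: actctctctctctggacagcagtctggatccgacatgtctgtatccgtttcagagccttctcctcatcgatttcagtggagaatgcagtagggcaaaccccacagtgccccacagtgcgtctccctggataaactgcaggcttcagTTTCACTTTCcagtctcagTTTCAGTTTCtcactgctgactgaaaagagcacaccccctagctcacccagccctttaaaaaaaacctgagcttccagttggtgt
Cxcl10 promoter, chr5:92348890-92349139: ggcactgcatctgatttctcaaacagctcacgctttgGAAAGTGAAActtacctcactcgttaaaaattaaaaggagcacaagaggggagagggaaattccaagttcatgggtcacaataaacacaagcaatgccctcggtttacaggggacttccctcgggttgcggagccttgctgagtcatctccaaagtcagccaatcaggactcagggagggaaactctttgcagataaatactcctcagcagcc
Gbp2 promoter, chr3:142620413-142620662: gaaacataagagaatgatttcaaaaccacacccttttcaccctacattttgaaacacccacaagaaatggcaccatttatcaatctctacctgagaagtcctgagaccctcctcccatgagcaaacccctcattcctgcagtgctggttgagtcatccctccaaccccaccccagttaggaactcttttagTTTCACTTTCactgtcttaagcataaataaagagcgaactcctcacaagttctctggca
Gbp7 promoter, chr3:142530086-142530335: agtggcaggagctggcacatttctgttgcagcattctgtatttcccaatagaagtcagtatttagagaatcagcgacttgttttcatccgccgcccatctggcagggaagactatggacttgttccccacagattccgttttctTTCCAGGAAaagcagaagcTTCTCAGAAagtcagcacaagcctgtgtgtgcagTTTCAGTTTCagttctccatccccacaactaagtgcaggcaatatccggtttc
Irf1 promoter, chr11:53769764-53770013: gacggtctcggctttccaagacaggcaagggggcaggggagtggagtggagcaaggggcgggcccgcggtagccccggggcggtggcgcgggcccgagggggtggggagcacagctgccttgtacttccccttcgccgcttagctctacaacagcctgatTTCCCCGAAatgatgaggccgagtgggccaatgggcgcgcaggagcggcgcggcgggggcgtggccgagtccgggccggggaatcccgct
Isg15 and Cxcl10 lie on the minus strand and the other 4 genes on the plus strand. In Isg15 3 ISRE cores overlap one another between 78 and 57 bases before the start, and Ifit1 has 2 that do not overlap, at 104 to 95 and 85 to 76 bases. Cxcl10 has an ISRE core at 213 to 204 bases and Gbp2 at 59 to 50. Gbp7 holds both kinds, GAS matches at 106 to 98 and 87 to 79 bases and an ISRE core at 53 to 44, and the capitals in Irf1 are a GAS at 90 to 82. Irf1 has a second window in the table, chr11:53770223-53770472, which holds neither motif. A gene with several windows was counted once, if any of them held the motif.

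An ISRE core occurred in 11 of the 21 interferon gamma-inducible genes with a promoter in the table (52.4%) and in 7 of 16 type I interferon-stimulated genes (43.8%). The share was 55 of 608 (9.05%) among genes higher than each group, 22 of 831 (2.65%) among genes lower than each group, 3.4% among all tested genes with an entry and 2.98% of all 32851 windows. The GAS occurred in 9 of the 21 (42.9%), in 57 of 608 (9.38%), in 70 of 831 (8.42%) and in 7.02% of all windows. The window of Cxcl9, which ranks next to Ccl11 among the named genes, holds neither motif in these letters. Ccl11, Nos2 and Mx1 had no entry. A match describes the letters of a window and is not evidence of binding.

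Type I interferon-stimulated genes, which code for antiviral effectors, also lay high against every chemical group, with medians from 3.34 against CCl4 to 5.43 against ANIT. All 22 were tested, 17 were higher in ConA than in each chemical group (77.3%, against 5.07% of all genes), none was lower and 13 showed no overlap of mice, as did 1.81% of all genes. Rsad2, an antiviral enzyme also called viperin, measured 302 to 981 CPM in ConA (median 667) and 0.257 to 35.5 in the chemical livers, the highest again being APAP mouse 1. Isg15, a ubiquitin-like modifier whose promoter is printed above, measured 532 CPM in ConA mouse 12 and 1183 to 1637 in the other 6. The chemical livers ended at 76.9 CPM, well under the lowest ConA value, and the nearest group was CCl4 (5.45, largest edgeR adjusted p = 2.01e-09). Ifit1, which binds viral RNA, measured 31.2 to 293 CPM against 0.103 to 5.48 (nearest group GAL, 5.45, largest edgeR adjusted p = 9.6e-07). Mx1 measured 27.2 to 234 CPM against 0 to 4.74. Bst2, Oas1a, Oas2, Oas3 and Oasl2 did not pass in all 6 pairs. With the vehicle of the same route subtracted, 10 of the 22 passed, and the list's median from the mean of the 6 was 3.5 (4.13 without it).

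Genes of class I antigen presentation were higher in ConA nearly throughout. For class I, 17 of 18 members were higher than in each group (94.4%, against 5.07% of all genes) and 15 showed no overlap, as did 1.81% of all genes. The summed level was 9845 to 11650 CPM in ConA (median 11370), at most 5495 in the chemical livers and 4007 to 5822 in the vehicle livers. Tap1, a subunit of the peptide transporter, measured 141 to 303 CPM in ConA and 3.9 to 40.1 in the chemical livers (nearest group GAL, 2.68, largest edgeR adjusted p = 1.56e-08). Psmb8, an immunoproteasome subunit, measured 121 to 185 CPM against 9.94 to 41.6 (GAL, 2.52, largest edgeR adjusted p = 3.21e-08). H2-K1, a class I heavy chain, measured 1806 to 3279 CPM against 467 to 1269, and B2m, the light chain, 2636 to 4420 against 1032 to 2849, with overlap. Erap1 was the member that did not pass. Tap1 and Psmb9 lie beside each other on opposite strands with overlapping models, and the class I heavy chains share sequence. With library-total scaling 7 of the 18 passed in all 6 pairs.

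None of the 11 genes of class II presentation was higher or lower than in each group, and their median log2 difference from the mean of the 6 groups was 0.27. In single pairs 5 were higher than in ANIT (median 1.34) and 6 higher than in MDA (median 1.24), with none lower, while against GAL none was higher and 2 were lower (median −0.58). Cd74, the invariant chain, measured 89 to 199 CPM in ConA and 96.5 to 161 in GAL, its nearest group (0.15, edgeR adjusted p = 0.747). H2-Ab1 measured 20.2 to 46.3 CPM in ConA and 6.67 to 50.7 in the chemical livers. Ciita, the class II transactivator and a target of interferon gamma, measured 0.105 to 0.944 CPM in ConA and 0.754 to 1.27 in GAL.

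Transcripts of T and natural killer (NK) cells were low in all livers. Of 32 listed, 24 were tested, and Gzmb and Ctla4 were higher in ConA than in each group (8.33%, near the 5.07% of all genes). Against the mean of the 6 groups 13 of the 24 were higher, against 24.9% of all genes, and 1 lower, against 26.3%. The list's median from that mean was 1.06, and in single pairs it ran from 0.12 against GAL to 1.77 against ANIT. With the vehicle of the same route subtracted 2 of the 24 were higher than that mean, against 7.67% of all genes, and the median was 1.02. Gzmb, a granzyme of cytotoxic cells, measured 2.95 to 7.33 CPM in ConA (median 5.31) and 0 to 1.71 in the chemical livers, without overlap (nearest group GAL, 1.88, largest edgeR adjusted p = 0.0101). Ctla4, an inhibitory receptor of activated T cells, measured 0.907 to 4.1 CPM against 0 to 0.501 (TAA, 3.63, largest edgeR adjusted p = 0.00495). The defining marker Cd3e measured 0.0932 to 0.917 CPM in ConA and 0 to 0.916 in the chemical livers, and Cd4 0.118 to 2.1 against 0.134 to 1.74. Cd8a, Cd8b1 and Fasl were among the 8 members under the filter. The summed level of the list was 17.1 to 43.4 CPM in ConA (median 33.2), 19.7 to 25.6 in GAL, 5.6 to 13.1 in MDA and 15.4 to 36.1 in the vehicle livers. Among mice numbered above 4, which include no ANIT mouse, neither Gzmb nor Ctla4 passed in all of the 5 remaining pairs.

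Of 28 cytokines, 17 were tested, and Ifng, Il1rn, Il33 and Tnfsf10 were higher in ConA than in each group (23.5%, against 5.07% of all genes). After subtraction of the vehicle of the same route none of the 17 passed in all 6 pairs, while the list's median from the mean of the 6 was 2.98 (2.85 without it). For Ifng that fit gave a difference of 9.1 with an SE of 16245 and so no usable test. Ifng itself, the ligand of the pathway, measured 2.12, 3.25, 2.8, 2.27, 0.4664, 2.09 and 1.78 CPM in the 7 ConA livers and was listed at 0 in all ANIT and APAP livers. Its highest chemical value was 0.646 in MDA, above the lowest ConA liver, and the nearest difference was 4.32 (MDA, largest edgeR adjusted p = 0.00535). Il1rn, the antagonist of the interleukin-1 receptor, measured 327 to 366 CPM in ConA and 1.04 to 339 in the chemical livers, where the next value below that of APAP mouse 1 was 66.5 in CCl4. Il33, an alarmin, measured 10.7 to 21.7 CPM against 0.451 to 22.2, and Tnfsf10, the death ligand TRAIL, 2.24 to 7.32 against 0.0352 to 1.33. Tnf measured 1.02 to 3.78 CPM in ConA and 0.125 to 5.46 in TAA (nearest difference 0.49, edgeR adjusted p = 0.632). Il6 measured 2.99 to 15.5 CPM in ConA and 0 to 8.26 in the chemical livers, the highest being APAP mouse 1, with APAP nearest (2.1, edgeR adjusted p = 0.111). Il1b measured 1.17 to 3.26 CPM in ConA and 0.348 to 49.1 in the chemical livers. Il2, Il4 and Il17a were among the 11 members under the filter.

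Chemokine ligands were among the lists with many higher members. Of 28 listed, 27 were tested, 11 were higher in ConA than in each group (40.7%, against 5.07% of all genes) and 1, Ccl6, was lower (3.7%, under the 6.36% of all genes). The ligands of CXCR3, which are Cxcl9, Cxcl10 and Cxcl11, were all among the 11. Ccl11, eotaxin, which draws eosinophils, had the widest gap of all named genes. It measured 15.9 CPM at the lowest, 61.2 at the median and 104 at the highest in ConA, and 0, 0.0385 and 0.462 in the chemical livers. The nearest difference was 8.55 (APAP, largest edgeR adjusted p = 1.87e-09), and the vehicle livers lay at 0 to 0.198 CPM. After subtraction of the vehicle of the same route the fitted difference of Ccl11 from the mean of the 6 was 8.05 (9.51 without it), with an SE of 161282, so that fit gave no usable test. Ccl2, a monocyte attractant, measured 405 to 1280 CPM in ConA and 0.377 to 505 in the chemical livers, and Ccl5, a T cell attractant, 106 to 207 against 0.57 to 189. The neutrophil attractants Cxcl1 and Cxcl2 measured 261 to 758 and 275 to 736 CPM in ConA, and 943 and 932 in APAP mouse 1, and neither passed against APAP (edgeR adjusted p = 0.0768 and 0.229). For Cxcl5, of the same class, the 7.12 to 17 CPM of ConA lay above the 0 to 5.92 of the chemical livers (APAP, 3.38, largest edgeR adjusted p = 0.00837). Ccl6 measured 4.08 to 18.5 CPM in ConA and 7.81 to 125 in the chemical livers. Without APAP mouse 1, 16 of the 27 chemokines passed in all 6 pairs, with limma 17, with library totals 7, and with the vehicle of the same route subtracted 3 (median from the mean of the 6, 2.64, and 2.95 without it).

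Inhibitors that the JAK-STAT and NF-kB pathways switch on were higher in ConA than in each group in 12 of 17 tested members (70.6%, against 5.07% of all genes), 2 of them without overlap (1.81% of all genes). Tnfaip3, a deubiquitinase that limits NF-kB, measured 46.5 to 261 CPM in ConA (median 146) and 0.948 to 135 in the chemical livers (nearest group APAP, 2.74, largest edgeR adjusted p = 0.00673). Nfkbia, the inhibitor IκBα, measured 264 to 789 CPM against 17.9 to 432 (TAA, 2.28, largest edgeR adjusted p = 0.000752). Socs1, the suppressor of interferon gamma signalling, measured 9.17 to 31.2 CPM against 0 to 22.8, and APAP mouse 1 held the 22.8. Socs3, which responds to interleukin-6, measured 97.5 to 155 CPM in ConA and 8.59 to 339 in APAP (0.63, edgeR adjusted p = 0.38). With library totals 8 of the 17 passed, and with the vehicle of the same route subtracted 4, where the list's median from the mean of the 6 was 2.45 (2.49 without it).

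Kupffer cell genes, which mark the resident macrophages of the sinusoid, were lower in ConA than in each chemical group in 12 of 13 members (92.3%, against 6.36% of all genes), and 8 of them showed no overlap, as did 0.818% of all genes. None was higher. The summed level was 119.3 to 206.8 CPM in ConA (median 163.6), at least 324 in every chemical liver and 454.6 to 1172 in the vehicle livers. In bulk RNA, fewer cells of a type and less RNA per cell cannot be told apart. Cd163, the scavenger receptor for haemoglobin and haptoglobin, measured 0.0613 CPM at the lowest, 0.105 at the median and 0.407 at the highest in ConA, the highest being mouse 12. The chemical livers measured 2.49, 6.62 and 28.6 CPM, all above the ConA livers, and the nearest difference was −4.49 (CCl4, largest edgeR adjusted p = 6.17e-11). Cd5l, a secreted apoptosis inhibitor of macrophages, measured 5.55 to 10.2 CPM in ConA and 30.8 to 206 in the chemical livers (ANIT, −2.96, largest edgeR adjusted p = 4.37e-10). Clec4f, a lectin that marks Kupffer cells in mice, measured 9.42 to 27.6 CPM against 34.7 to 170 (CCl4, −1.75, largest edgeR adjusted p = 6.48e-07). Vsig4, a complement receptor, measured 1.88 to 5.5 CPM against 11.9 to 67.1. Timd4 and Folr2 were lower with some overlap, at 0.713 to 2.1 against 1.91 to 10.1 and 3.08 to 11.1 against 9.18 to 39.4 CPM. Nr1h3, the liver X receptor alpha, which hepatocytes also express, was the member that did not pass in all 6 pairs. With the vehicle of the same route subtracted 8 of the 13 passed.

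Macrophage genes outside that list included some of the named genes. Csf1r, the receptor for macrophage colony-stimulating factor, measured 2.45 to 6.7 CPM in ConA (median 3.78) and 12.5 to 53 in the chemical livers, without overlap (CCl4, −2.49, largest edgeR adjusted p = 4.05e-10). Its model overlaps that of Hmgxb3 on the other strand. Siglec1, a sialic acid receptor of resident macrophages, measured 0.105 to 0.458 CPM against 1.42 to 11.8, and Cd300e, an activating receptor of monocytes, 0 to 0.306 against 0.767 to 6.64. Slc40a1, the iron exporter ferroportin, is itself a member of the Kupffer cell list. It measured 0.826 to 2.9 CPM in ConA and 2.5 to 164 in the chemical livers, and the lowest of these was an APAP liver. Of the 18 monocyte and macrophage genes, 2 were lower than in each group, Trem2 and Mrc1 (11.1% against 6.36% of all genes), and none was higher. Against the mean of the 6 groups 6 were higher and 5 lower, with a median of −0.01. Trem2, a lipid receptor, measured 0 to 0.611 CPM against 0.821 to 12.9. Ly6c2 and Chil3, of inflammatory monocytes, measured 2.61 to 16.1 and 6.92 to 20.8 CPM in ConA, within the 0 to 33.1 and 0.251 to 55.3 of the chemical livers. Ccr2 measured 0 to 0.306 CPM in ConA and was lower than in 5 groups, but not than in ANIT (−0.92, edgeR adjusted p = 0.38).

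**Figure D4:**
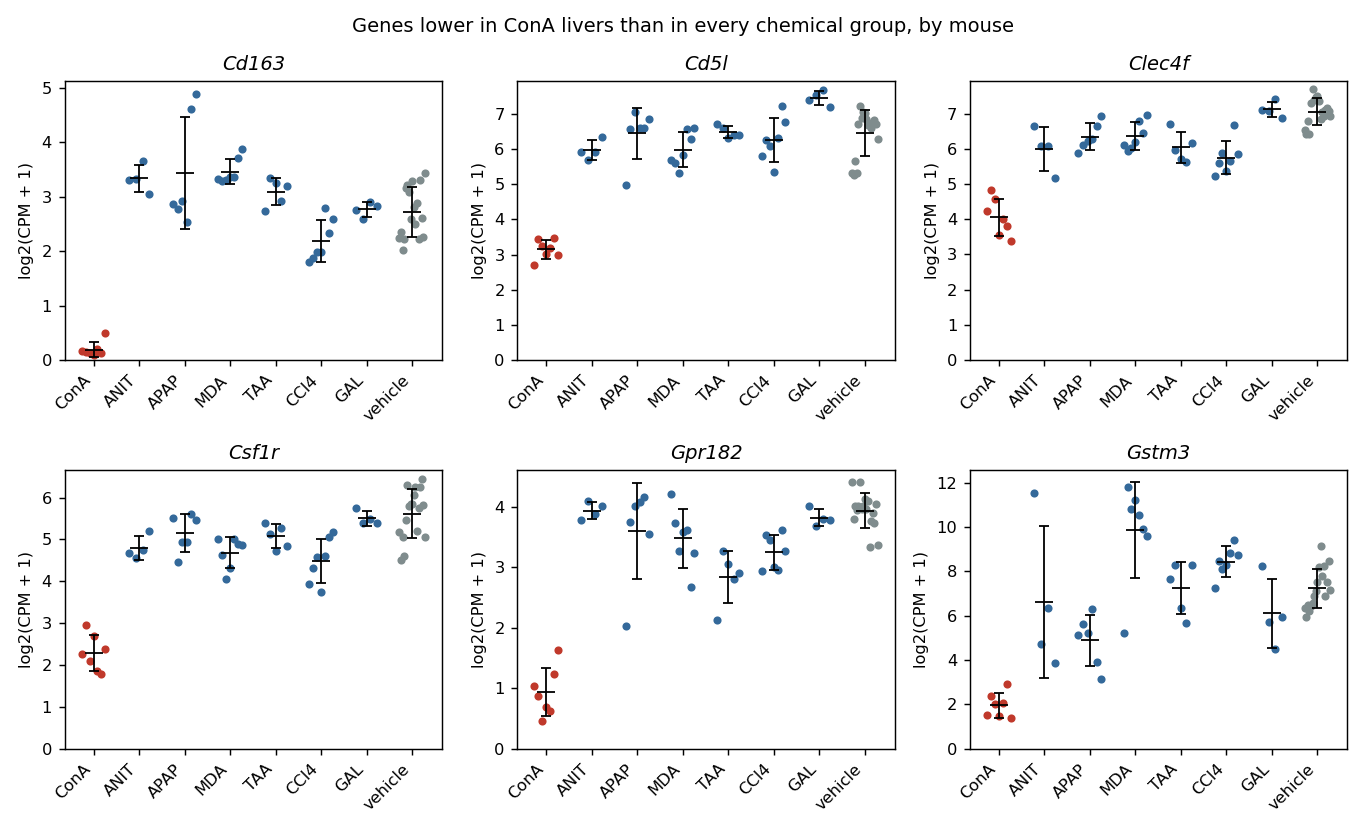
Levels of 6 genes lower in ConA, log2(CPM + 1) on the vertical axis, in each liver (points) by group, with the group mean ± SD in black. The ConA points lie below all chemical points, with Cd163 at no more than 0.407 CPM and Cd5l at no more than 10.2 CPM.

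Genes of sinusoidal endothelial cells, the fenestrated cells that line the sinusoid, were lower in ConA than in each chemical group in 8 of 15 members (53.3%, against 6.36% of all genes), and 6 of them showed no overlap, as did 0.818% of all genes. Rspo3, a Wnt agonist, was the member that was higher in ConA, at 1.94 to 4.82 CPM against 0.507 to 2.69 (TAA, 0.8, largest edgeR adjusted p = 0.0378), and it did not pass without ConA mouse 2 or 3 or TAA mouse 1, 3 or 8. The summed level of the list was 88.5 to 146 CPM in ConA and 121 to 167 in CCl4, the lowest chemical group, so the sums overlapped. Oit3 measured 0.919 to 2.48 CPM in ConA (median 1.4) and 6.26 to 20.4 in the chemical livers (TAA, −2.27, largest edgeR adjusted p = 3.2e-09). Kdr, the main receptor for vascular endothelial growth factor, measured 0.356 to 0.733 CPM against 1.01 to 13 (TAA, −2.25, largest edgeR adjusted p = 8.71e-06). Gpr182, a chemokine scavenger, and Sox18, an endothelial transcription factor, lay 2.67 and 2.9 log2 units from TAA, their nearest group, at 0.373 to 2.09 and 0 to 0.4658 CPM in ConA. The hyaluronan receptors went differently: Stab2 measured 8.39 to 18.3 CPM in ConA and 8.46 to 23.6 in the chemical livers, and Lyve1 34.9 to 69.3 CPM in ConA against 32.4 to 66.5 in TAA and 2.03 to 7.34 in CCl4. Wnt2, a central vein signal to hepatocytes, measured 0.0932 to 0.272 CPM against 0.265 to 1.94. With the vehicle of the same route subtracted 5 of the 15 passed.

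Of 14 tested genes of endothelial activation, 5 were higher than in each group (Icam1, Sele, Vcam1, Icam2 and Procr), 35.7% against 5.07% of all genes. One, Tek, was lower (7.14% against 6.36%). The 5 fell to 2 without TAA mouse 6, and to 3 without TAA mouse 3 or 8 or ConA mouse 2. Icam1, a ligand of leukocyte integrins, measured 116 to 444 CPM in ConA (median 339.7) and 6.68 to 158 in the chemical livers, where APAP mouse 1 held the highest value (APAP, 3.09, largest edgeR adjusted p = 4.41e-05). Vcam1, a ligand of lymphocyte integrins, measured 30.8 to 102 CPM against 5.28 to 25.2 (TAA, 1.42, largest edgeR adjusted p = 0.00067). Sele, E-selectin, measured 7.18 to 25.4 CPM against 0 to 13.8. Tek, the angiopoietin receptor, measured 0.155 to 0.662 CPM against 1.21 to 4.81 (TAA, −1.89, largest edgeR adjusted p = 1.13e-06). With library totals 1 of the 5 higher genes passed in all 6 pairs, and with the vehicle of the same route subtracted 1 (list median 1.89 from the mean of the 6, and 1.93 without it).

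**Figure D5:**
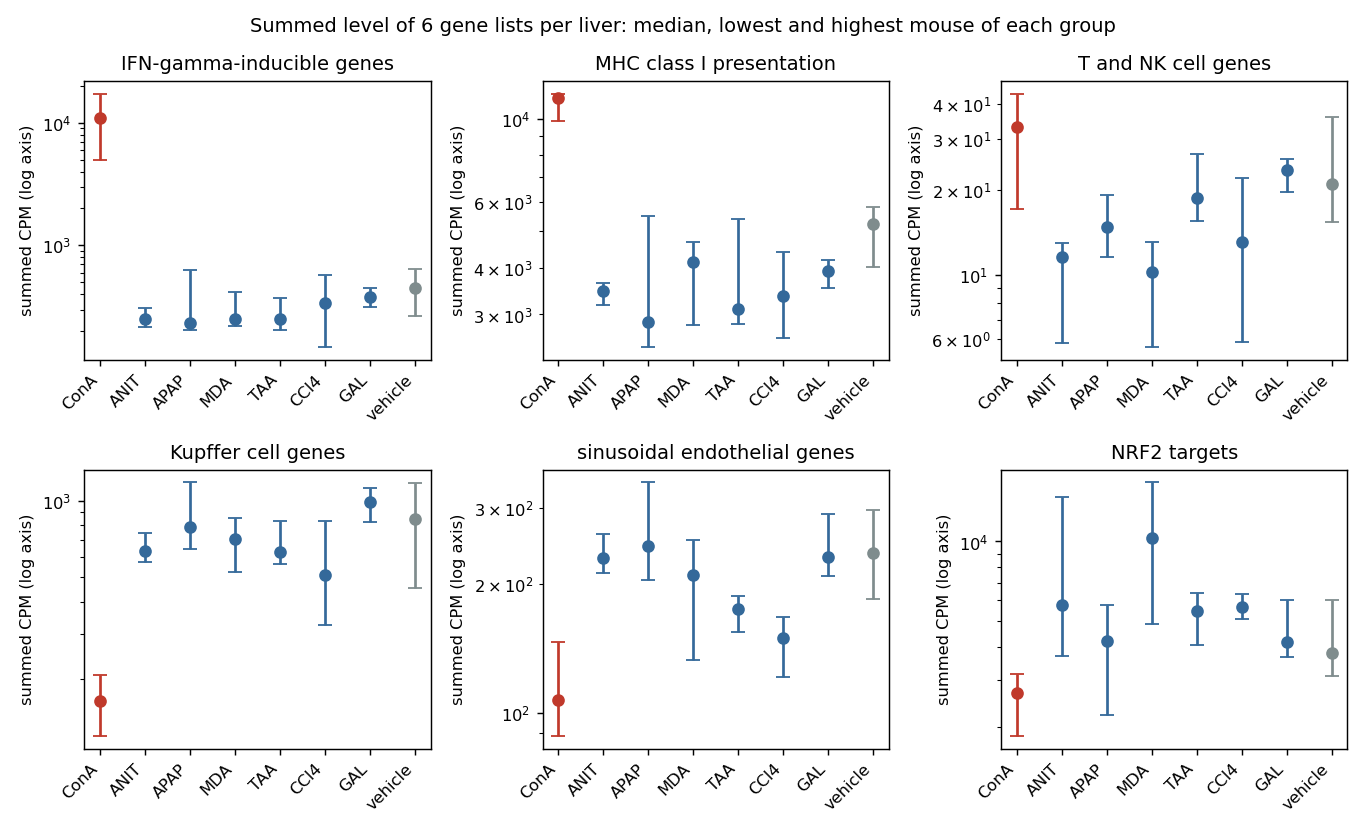
Summed CPM of 6 gene lists by group, on a log axis, with the median as a point and the line from the lowest to the highest liver. The interferon gamma list of ConA starts at 5000 CPM, above the chemical maximum of 624.2, and the Kupffer list of ConA ends at 206.8 CPM, under the chemical minimum of 324.

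Counts beyond each group were small for the other blood cell lists, and 1 or 2 called genes of 10 to 18 lie too near the 5.07% and 6.36% of all genes to describe a list. Against the mean of the 6 groups 10 of 18 neutrophil genes were higher and 3 lower (median 1.71). For erythroid and platelet genes 6 of 10 were higher and 0 lower (median 2.35). The shares of all genes were 24.9% higher and 26.3% lower. Against TAA alone both medians were below 0 (−1.06 and −0.19). Of 18 neutrophil genes tested, Ngp and Camp, granule proteins of maturing neutrophils, were higher than in each group, and Fpr1, the formyl peptide receptor, was lower. Ngp measured 17.5 to 30.4 CPM in ConA and 0 to 1.85 in the chemical livers (TAA, 3.99, largest edgeR adjusted p = 0.000642), and Fpr1 0 to 0.314 CPM against 0.938 to 7.76. S100a9, an abundant neutrophil protein, measured 76.9 to 172 CPM in ConA and 66.1 to 448 in TAA. Globin transcripts were high in ConA and TAA: Hbb-bs measured 533 to 2450 CPM in ConA, 1056 to 1863 in TAA and 17.8 to 868 in the other chemical livers, and their part in the results was not tested. Slc4a1, the anion exchanger of red cells, was the erythroid gene that was higher than in each group, at 0.306 to 3.98 CPM against 0 to 0.39. None of 11 B cell and plasma cell genes was higher or lower than in each group.

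Acute phase proteins, which hepatocytes secrete in response to interleukin-6, were all higher in ConA than the mean of the 6 groups with TMM scaling (25 of 25, against 24.9% of all genes), and 5 were higher than in each group (20%, against 5.07% of all genes). Saa3 measured 1836 to 6436 CPM in ConA (median 3743) and 5.44 to 1023 in the chemical livers, without overlap (APAP, 4.41, largest edgeR adjusted p = 0.000129). Lcn2, lipocalin-2, which binds bacterial siderophores, measured 14370 to 19510 CPM in ConA, 21930 in APAP mouse 1, 240.1 to 5263 in the other APAP livers and 7.21 to 31.9 in GAL. Hpx, the haem carrier hemopexin, measured 13710 to 19770 CPM against 2118 to 18040, and Orm2 and Steap4 were the other members higher than in each group. Hp and Saa1 did not pass against ANIT (0.52 and 1.36, edgeR adjusted p = 0.148 and 0.169). The list's median difference ran from 0.67 against ANIT to 4.61 against GAL. Without APAP mouse 1, 9 of the 25 passed in all 6 pairs, without ConA mouse 2 or 3 3, with DESeq2 8, with limma 9, with the replicate block 3, and with the vehicle of the same route subtracted 1, where the list's median from the mean of the 6 stayed at 2. Among mice numbered above 4, where ANIT is missing, 14 passed in the 5 remaining pairs. None of 25 coagulation genes passed in all 6 pairs, and 2 passed without APAP mouse 1. Against the mean of the 6 groups 16 of the 25 were higher, against 24.9% of all genes, and 2 lower, against 26.3%, but the list's median of 0.61 lay inside the shift of 0.74 between scalings, so no direction is given.

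Targets of NRF2, the transcription factor that answers electrophiles, were lower in ConA than in each group in 9 of 20 members (45% against 6.36% of all genes) and higher in none. The 9 were the quinone reductase Nqo1, the glutathione synthesis enzymes Gclc and Gclm, the glutathione transferases Gsta1, Gsta2, Gsta4, Gstm1 and Gstm3, and the carbonyl reductase Cbr3. Gstm3 measured 1.58 CPM at the lowest, 3.07 at the median and 6.53 at the highest in ConA, and 7.8, 199 and 3552 in the chemical livers, with no overlap (APAP, −3.52, largest edgeR adjusted p = 0.00166). Vehicle livers lay at 60.7 to 561 CPM, also above ConA. Nqo1 measured 2.27 to 9.12 CPM in ConA, 7.14 to 38.1 in the chemical and 4.62 to 8.56 in the vehicle livers. Gsta2 measured 8.25 to 26.1 CPM against 34.3 to 209, and the 58.5 to 122 of the vehicle livers lay within the chemical range. Hmox1, an NRF2 target that haem also induces, measured 304 to 458 CPM in ConA and 356 to 564 in TAA, and Srxn1 40.1 to 264 CPM in ConA and 594 to 944 in CCl4. With the vehicle of the same route subtracted 5 of the 20 passed. The core of the antioxidant response element, searched as TGACNNNGC on both strands, occurred in 5 of 17 NRF2 target promoters (29.4%) and in 13.7% of those of all tested genes. Gclm was the one of the 9 lower targets among the 5, and the share was 14.6% among all genes lower than each group and 14.5% among those higher.

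Among metabolic genes the counts beyond each group lay near the shares of all genes. Of 33 cytochrome P450 genes, Cyp2a5, Cyp1a1 and Cyp2u1 were lower than in each group (9.09% against 6.36%). Cyp2a5, a coumarin hydroxylase, measured 18.6 to 103 CPM in ConA (median 42.5) and 5.08 to 5209 in the chemical livers, the lowest being in APAP. Cyp2e1, which bioactivates APAP and CCl4, measured 1021 to 4356 CPM in ConA, 137 to 285 in CCl4 and 821 to 4628 in MDA. Of 19 lipid synthesis genes, Acaca and Pnpla3 were lower than in each group, as were 6.36% of all genes. Acaca, which makes malonyl-CoA, measured 2.61 to 8.08 CPM in ConA and 6.39 to 52.2 in the chemical livers (GAL, −1.07, largest edgeR adjusted p = 0.00136), and Pnpla3, a lipid droplet enzyme, was listed at 0 in all 7 ConA livers. The Pnpla3 mean of 0.194 CPM in TAA is under a floor of 3 counts in ConA, so no size can be given for its gap from that group. The lipid list's median ran from −2.61 against MDA to 0.24 against GAL. Among the 22 hepatocyte identity genes Cebpa was higher and Foxa1 lower than in each group (4.55% in each direction, with 0 to 2 higher and 1 to 2 lower when single mice were left out). The marker Alb, albumin, measured 19300 to 52280 CPM in ConA and 9216 to 88630 in the chemical livers. Got1, the cytosolic aspartate aminotransferase, was the one of 22 urea and amino acid genes that was higher (4.55%), at 290.3 to 936 CPM against 21.2 to 606. Nr0b2, the bile acid-induced repressor SHP, measured 0.0907 to 1.66 CPM in ConA and 3.81 to 259 in the chemical livers, without overlap (TAA, −2.82, largest edgeR adjusted p = 0.000372).

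Of 23 genes of cell death, 8 were higher in ConA than in each group (34.8% against 5.07% of all genes) and Fadd, the adaptor of death receptors, was lower, though not without ConA mouse 4 or TAA mouse 3 or 7. The 8 included effectors of lytic death. Zbp1, a sensor of Z-form nucleic acid, measured 159 to 266 CPM in ConA and 1.3 to 34.7 in the chemical livers (CCl4, 3.99, largest edgeR adjusted p = 2.54e-07). Mlkl, the pore protein of necroptosis, measured 21.1 to 36.2 CPM against 1.23 to 9.3 (GAL, 1.78, largest edgeR adjusted p = 4.68e-05), and Gsdmd, gasdermin D, 64 to 90.5 against 9.89 to 44.9 (MDA, 1.45, largest edgeR adjusted p = 1.55e-07). Casp4, the sensor of cytosolic lipopolysaccharide, measured 6.21 to 22.4 CPM against 0.48 to 6.01. Fas, a death receptor that is also on the p53 list, measured 20.1 to 108 CPM (median 78) against 4.06 to 32. Ripk3, the kinase that acts on Mlkl, measured 2.36 to 10.4 CPM in ConA and 1 to 7.59 in TAA (0.39, edgeR adjusted p = 0.512). Zbp1 and Casp4 are themselves known interferon-induced genes. With library totals 3 of the 8 passed in all 6 pairs, and with the vehicle of the same route subtracted 3 (list median 0.72 from the mean of the 6, and 0.8 without it).

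Of 20 p53 targets, Trp53inp1, Fas, Btg2 and Sesn1 were higher than in each group (20% against 5.07% of all genes). Trp53inp1 measured 55.3 to 364 CPM against 3.07 to 51.9 (GAL, 2.92, largest edgeR adjusted p = 0.000163). Cdkn1a, the cell cycle inhibitor p21, measured 260.2 to 340 CPM in ConA and 199.5 to 329 in TAA (0.21, edgeR adjusted p = 0.682). Of 24 ATF4 and endoplasmic reticulum stress genes, Ddit4 and Xbp1 were higher (8.33% against 5.07% of all genes), and 1 of them passed without any one of ConA mice 2, 3, 4, 8 and 11 or ANIT mice 1, 2 and 4. None of 22 cell cycle genes passed in all 6 pairs. Of 18 stellate cell and matrix genes, Timp1, an inhibitor of matrix proteases, and Lox, a collagen cross-linker, were higher and Lrat, which esterifies vitamin A, was lower, counts near those of all genes (11.1% against 5.07%, and 5.56% against 6.36%). Of the 2 higher genes 1 passed without ConA mouse 2 or 5 or TAA mouse 1, 3, 6 or 8. Timp1 measured 46.6 to 112 CPM against 0.57 to 42.2 (APAP, 2.13, largest edgeR adjusted p = 6.08e-05). Acta2, a marker of myofibroblasts and smooth muscle, measured 0.855 to 3.77 CPM in ConA, 29.1 to 75.2 in TAA and 0.308 to 1.01 in ANIT. Of 8 tested cholangiocyte genes, Krt19, Epcam, Sox9 and Cldn7 were higher (50% against 5.07% of all genes), each with overlap of mice. The 4 fell to 1 without TAA mouse 3 and to 2 without ConA mouse 2, 5 or 8, GAL mouse 2 or 4 or TAA mouse 1 or 8. Sox9 measured 16.3 to 59.9 CPM against 1.07 to 38.4 (TAA, 1.58, largest edgeR adjusted p = 0.0284). With library totals none of the 4 passed in all 6 pairs.

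Outside the lists, Duoxa2, Ptx3 and Olfr56 were among the 15 genes with the widest gaps above the nearest group. Duoxa2, the maturation factor of a hydrogen peroxide-producing oxidase, measured 26.5 CPM at the lowest, 55 at the median and 96.5 at the highest in ConA. It was listed at 0 in all GAL livers, reached 4.84 CPM in APAP mouse 1 and stayed at or under 1.57 in every other chemical liver (APAP, 6.49, largest edgeR adjusted p = 3.57e-05). Duox2, the oxidase itself, which was named for its difference from GAL, measured 13.7 to 29.4 CPM against 0 to 1.67 (MDA, 4.71, largest edgeR adjusted p = 1.6e-05). Duoxa2 overlaps Duoxa1 on the other strand. Ptx3, a soluble pattern recognition protein, measured 1.72 to 10.9 CPM in ConA, 0 to 0.175 in the chemical livers and 0 in all vehicle livers. After subtraction of the vehicle of the same route Duoxa2 differed from the mean of the 6 by 10.11 (edgeR adjusted p = 0.00217; 9 without it) but did not pass in all 6 pairs, and Ptx3 by 8.3 with an SE of 11051, which gave no usable test. Olfr56 measured 3.56 to 14.6 CPM against 0 to 0.324, and its model overlaps those of Ifi47, Tgtp1 and Tgtp2. On the lower side, Ptgs1, the constitutive cyclooxygenase, measured 0.354 to 1.9 CPM against 3.67 to 24.1 (CCl4, −3.53, largest edgeR adjusted p = 1.8e-10). Ptgs2, the inducible form, measured 8.15 to 25.8 CPM in ConA and 0 to 2.34 in the chemical livers (TAA, 4.45, largest edgeR adjusted p = 0.000139), so the ranges of the isoforms lay on opposite sides. Treml4, a receptor of myeloid cells, measured 0.184 to 0.815 CPM against 2.25 to 13.5, Mustn1, a musculoskeletal protein, 0 to 0.713 against 1.61 to 13.9, and Mtfp1, a mitochondrial fission protein, 0.59 to 2.33 against 2.34 to 16.9.

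The genes with the largest difference in single pairs were partly others. Npy, neuropeptide Y, measured 10.1 to 29.2 CPM in ConA and was listed at 0 in all ANIT livers, but TAA reached 23.6. Csf3, the growth factor of granulocytes, measured 22.3 to 62.7 CPM in ConA, at most 0.0267 in CCl4 and 144 in APAP mouse 1. Ltf, lactoferrin, measured 0.56 to 22.1 CPM in ConA and at most 0.0363 in MDA. Cd300ld3 was listed at 0 in all ConA livers and measured 1.54 to 5.64 CPM in APAP, 1.78 to 4.69 in TAA and 3.29 to 7.03 in GAL. Dppa5a, Sh2d6, Wincr1 and Gssos1 were also listed at 0 in all ConA livers. Sh2d6 and Wincr1 measured 7.24 to 10.6 and 3.66 to 8.56 CPM in CCl4 and were listed at 0 in all vehicle livers. Bach2os measured 0 to 0.0613 CPM in ConA and 0.167 to 6.98 in APAP.

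Against the 17 vehicle livers ConA was higher in 5158 genes (30.8%) and lower in 5382 (32.1%), in a comparison that shares the ConA mice with the others. The median log2 difference from vehicle was 2.02 over the 850 genes and −1.79 over the 1065 (−1.57 with the 131 genes at the count floor set to their bound), against −0.03 over all genes. The lists' medians from vehicle were 3.75 for interferon gamma-inducible genes, 1.39 for class I presentation, −2.5 for Kupffer cell genes, −2.23 for sinusoidal endothelial genes and −0.64 for NRF2 targets. With the vehicle of the same route subtracted, 1286 genes were higher (7.67%) and 2083 lower (12.4%) than the mean of the 6 groups, fewer than the 4170 and 4409 without the subtraction. That fit rests on 2 intravenous and 2 intraperitoneal saline mice. The lists' medians under it were 4.02, 1.85, −2.14, −1.74 and −1.91 in the same order.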

How the data were processed

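The deposited values are estimated counts for each gene and liver, which the authors made with Salmon 1.6.0 and R 4.1.3 on GRCm39, per the submitters' processing notes. The annotation release, the summing to genes, any correction for gene length and the use of strand are not given in the sources used here. Per the labels' protocols, single-end reads came from TruSeq stranded mRNA libraries on a NovaSeq. The IDs carry versions, and 51482 were given a symbol and 2825 were not. Labels give each liver its own number and do not say whether mice shared a cage or day, so p-values measure the spread between these livers.

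Estimated counts were rounded to whole numbers. TMM factors came from all 57 livers over genes kept by filterByExpr. In edgeR 4.0.16 (R 4.3.3) the quasi-likelihood test, two-sided and without covariates, was fitted to the 7 groups of 40 livers, with 6 contrasts of ConA against 1 chemical group and 1 against their mean. Calls have a Benjamini-Hochberg adjusted p under 0.05 over all 16758 genes tested. The pooled vehicle group entered a fit of 57 livers, and a fit of 10 groups subtracted the vehicle of the same route. CPM are TMM-scaled. Data were simulated for the rule of 6 groups over 16758 genes, with this depth and number of mice. The rule recovered 14 of 100 genes changed by a factor of 2 and 53 of 100 changed by a factor of 4. The rate of false calls in the livers was not tested.

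Named genes are list members, the 15 genes in each direction with the largest difference from the nearest group among called genes whose mice do not overlap (mean of at least 1 CPM, ordinary symbol), and the 2 highest and 2 lowest genes per pair by the same filters. The members and lists were chosen with earlier results of these data known. Alternatives were DESeq2 1.42.0, limma 3.58.1 on log2(CPM + 1), its values computed from the deposited counts, other scalings and filters, subsets of mice, single pairs, a replicate block, each group left out and single mice left out (each ConA, ANIT, TAA and GAL mouse, and APAP mouse 1). Replicate numbers were checked for pairing: deviations of same-numbered mice correlated between −0.171 and 0.162 with those of ConA, so the numbers were not taken to pair mice. Motifs were searched in RefSeq promoters of GRCm38.p6, matched by symbol.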

Additional observations from a re-analysis of the deposited data

Results flagged for a closer look

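A liver was marked where its gap to the nearest other liver of its group took up more of the group's range than Dixon's 95% critical value allows. This held for 30 of 237 group values (12.7%), where chance marks about 1 in 20, and 26 of the 30 concern the 30 named genes. The rate of 1 in 20 assumes continuous, normally spread values. Where all other livers of a group were at 0, any value above 0 is marked, as for Ccl11, Duoxa2 and Nos2 in ANIT and Ptx3 in GAL.

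APAP mouse 1 accounts for 10 of them. It had the highest values of its group for Gbp2 (16.77 CPM, others 1.988 to 2.95), Rsad2 (35.55, others 1.051 to 3.728), Cxcl10 (205.9, others 2.274 to 8.888), Nos2 (4.339, others 0.03765 to 0.198) and Duoxa2 (4.84, others 0 to 0.165), all genes that were higher in ConA. It had the lowest values for Cd5l (30.79 CPM, others 95 to 131), Sox18 (0.9179, others 5.73 to 8.732) and Gpr182 (3.088, others 10.71 to 16.96), all genes that were lower in ConA. Its TMM factor was 0.709 (others 1.131 to 1.226), and its mean correlation with the ConA livers was 0.893 (others 0.817 to 0.833). Whether this liver differs in injury, handling or labelling was not tested.

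ConA mouse 12 was marked for 4 genes, each on the side of the chemical livers: Gbp2 at 325.9 CPM (others 679.8 to 892), Isg15 at 532.1 (others 1183 to 1637), Cd163 at 0.4074 (others 0.06128 to 0.1555) and Cd300e at 0.3056 (others 0 to 0.118). All 4 values still lay outside the range of the chemical livers.

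ANIT mouse 1 stood apart in Duoxa2 (0.4991 CPM), Nos2 (1.497), Trem2 (3.137) and its TMM factor (0.794), ANIT mouse 3 in Ptgs1 (10.43 CPM) and ANIT mouse 4 in Ccl11 (0.05328). Among MDA mice, mouse 1 had low Gstm3 (35.96 CPM, others 782 to 3552) and Nr0b2 (44.13), mouse 2 low Cxcl9 (0.4344) and mouse 8 low Mtfp1 (6.271). TAA mouse 7 had high Duoxa2 (1.574 CPM) and a mitochondrial share of 24.4% (others 10.8% to 14.6%), and TAA mouse 6 had low Ptgs1 (9.194 CPM). Mustn1 was high in CCl4 mouse 11 (7.062 CPM) and low in GAL mouse 8 (5.927), and Ptx3 was 0.03164 in GAL mouse 4 and 0 in the other GAL mice.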

How the results depend on the processing

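Of the 43 alternatives, not all of which apply to each result, 2, leaving out APAP mouse 1 and a limit of 500 nt on transcripts, were chosen after seeing the data. The larger of the higher and lower counts changed sides in 27 of 395 recomputed pairs of counts. Against GAL this was 2740 higher and 1819 lower at 5 CPM. Against the mean of 6 it was 2399 and 2165 among mice numbered 1 to 4, 2376 and 2215 at a log2 difference of at least 1, and 5771 and 4432 without a filter. Against the mean of the 5 groups with mice numbered above 4 it was 3553 and 3390. The 30 genes with the widest gaps kept direction and side of the threshold except 8 among mice numbered 1 to 4 and 4 with the vehicle subtracted (Ccl11 and Ptx3 without a usable test), and 8 that fell under the filter of 5 CPM. With library totals, 241 genes were higher and 3274 lower than in each group, 108 lay wholly above and 339 wholly below, and calls were 7644 against TAA and 6803 with the vehicle subtracted. With a mean of at least 5 CPM, calls were 4322 (ANIT), 4045 (APAP), 4726 (MDA), 2850 (TAA), 4985 (CCl4), 4559 (GAL), 4809 (mean of 6), 5967 (vehicle) and 2161 (vehicle subtracted), with 551 lower than each and 89 wholly below. Among mice numbered 1 to 4 they were 4285, 1751, 4553, 1112, 1386, 3449, 4564 and 6458 in that order up to vehicle, with 179 higher, 168 lower, 828 above and 688 below. CCl4 had 1 mouse there, assumed to vary like the other groups. Among mice numbered above 4, where ANIT is missing and the rule is over 5 groups, they were 3163 (TAA), 694 lower, 787 above and 672 below. With a log2 difference of at least 1 they were 4320 (APAP), 5251 (MDA), 2898 (TAA), 5636 (CCl4), 4591 (mean of 6) and 6650 (vehicle), with 556 higher and 594 lower. With the vehicle of the same route subtracted they were 3914, 3043, 4459, 1679, 3119, 3181 and 3369 (ANIT to mean of 6), with 238 higher and 344 lower. Lower genes were 671 with each pair fitted by itself and 709 by adjusting the largest of 6 p-values. The 2 intravenous saline mice alone gave 6816. Without the APAP group 540 lay above and 265 below, and without GAL 223 below. The cause of these changes was not tested. Leaving out 1 mouse (ConA, ANIT, TAA, GAL or APAP mouse 1) gave 739 to 1037 higher, 913 to 1198 lower, 303 to 511 above and 137 to 237 below, and calls of 6217 to 7522 (ANIT), 6529 to 8070 (APAP), 7861 to 8483 (MDA), 3928 to 5238 (TAA), 8305 to 8982 (CCl4), 6929 to 8137 (GAL), 8058 to 8989 (mean of 6), 10149 to 10283 (vehicle) and 3171 to 3558 (vehicle subtracted).

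The replicate block gave 800 higher and 935 lower genes, 725 and 854 of them shared with the fit without it, and the numbers did not pair the mice. DESeq2 gave 1039 and 961, limma 1114 and 836. At this depth and these group sizes, changes by a factor of 2 were mostly missed by the rule of 6 groups in the test on made-up data (14% recovered).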
